A study of Homo sapiens with 6 samples.

Results

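The AP-1 family was followed across 3 groups of TCam-2, a seminoma cell line long used in testis cancer research. The 9 genes were FOS, FOSB, FOSL1 and FOSL2 of the FOS family, JUN, JUNB and JUND of the JUN family, and ATF3 and BATF3. They were 9 of the 62700 genes in the deposited table, and all 9 were found by symbol. The genes were chosen by family name with earlier results of these same libraries known, so their values are given as a description. No p-value is given for them, and where calls of the all-gene fits are counted for them, nothing is read from the counts. Each group had 2 libraries. WT cells received no transgene, GFP cells were transduced to carry FLAG-GFP, and RBMXL3 cells to carry FLAG-RBMXL3, whose product is related to the RNA-binding protein RBMX. WT and GFP cells were the negative controls of the study, and GFP cells shared transduction and the tag with RBMXL3 cells. Polyadenylated RNA was sequenced from the same line in every group. The promoter of the transduced genes, the number of clones and the culture of origin of each replicate are not given in the sources used here, so p-values measure the spread between these libraries, which may be technical.

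AP-1 is a transcription factor made of pairs of basic leucine zipper proteins. FOS proteins pair with JUN proteins, JUN proteins also pair with each other, and ATF3 and BATF3 pair mainly with JUN proteins. The pairs bind short DNA sites known as the TPA response element and the cyclic AMP response element. FOS, FOSB, JUN, JUNB and ATF3 are textbook immediate early genes, which growth factors and stress switch on through MAP kinases without new protein synthesis, and their mRNAs are short-lived.

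The libraries held between 17685680 reads (RBMXL3 replicate 1) and 29318007 reads (WT replicate 1), with both RBMXL3 libraries shallowest. Values are normalised read counts, that is reads divided by 1 size factor per library. RBMXL3 itself had 0 reads in the 4 controls, where 0 allows up to 3 reads each, and 84 and 68 reads in the RBMXL3 libraries. All 10 seminoma markers examined were present, with POU5F1 between 27460 and 41233 and SOX17 between 3170 and 4189. Of the embryonal carcinoma markers SOX2 was low, between 11.7 and 34.2, GDF3 lay between 48.7 and 123, and DNMT3B between 1943 and 2623. Of 6 stroma and blood markers, DCN, PTPRC and HBB stayed between 0 and 5.35, while COL1A2 lay between 8093 and 12709 in every group. COL3A1, a fibrillar collagen, was at 114 and 124 in WT, 207 and 214 in GFP, against 503 and 490 in RBMXL3, and COL1A1 at 206 and 235, 384 and 335, and 399 and 407. The summed level of the 6 markers was 8415 and 9634 in WT, 13301 and 11792 in GFP, against 12236 and 13070 in RBMXL3. Their part in the values below was not tested. In bulk RNA, fewer cells of a type and less RNA per cell cannot be told apart.

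The starts of 5 of the genes are shown. The same 5 genes had both RBMXL3 libraries above all 4 controls, and a link between their letters and their values was not tested. The windows of FOSL2 and JUND, which also held matches, are not shown. The promoter table of RefSeq (GRCh38.p14) held 7 of the 9 genes in 8 windows, with 2 starts for ATF3. The ATF3 sequence below precedes the first of these starts. The models ATF3-203 and ATF3-206, which begin at 212565334 within that sequence, were listed at 0 TPM in every library. ATF3-202, the most abundant ATF3 model, begins at 212608670, outside both ATF3 windows. FOSL1 and BATF3 were not matched. Each sequence below is the 150 bases before the annotated start, 5′ to 3′ on the gene's strand. Capitals mark TATAAA, the core of the TATA box, TGACG, the core of the cyclic AMP response element, and TGACATCA, a variant AP-1 site.
FOS: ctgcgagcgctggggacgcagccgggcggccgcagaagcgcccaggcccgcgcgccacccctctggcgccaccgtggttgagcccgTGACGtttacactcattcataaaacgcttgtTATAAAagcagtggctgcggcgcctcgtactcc
FOSB: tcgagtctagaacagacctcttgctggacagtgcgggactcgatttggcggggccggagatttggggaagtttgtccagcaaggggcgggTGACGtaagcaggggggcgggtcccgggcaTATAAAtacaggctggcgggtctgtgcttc
JUNB: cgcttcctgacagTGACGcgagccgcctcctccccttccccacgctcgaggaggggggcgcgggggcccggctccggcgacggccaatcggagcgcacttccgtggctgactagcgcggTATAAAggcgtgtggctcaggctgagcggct
JUN: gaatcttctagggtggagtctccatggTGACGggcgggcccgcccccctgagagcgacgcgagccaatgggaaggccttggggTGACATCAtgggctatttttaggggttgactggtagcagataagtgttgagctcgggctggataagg
ATF3: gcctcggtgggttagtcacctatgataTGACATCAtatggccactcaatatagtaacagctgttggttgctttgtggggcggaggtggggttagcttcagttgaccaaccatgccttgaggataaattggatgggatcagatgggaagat
These lie at chr14:75278678-75278827, chr19:45467846-45467995 and chr19:12791336-12791485 on the plus strand, chr1:58784048-58784197 on the minus strand and chr1:212565257-212565406 on the plus strand.

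Counting backwards from the RefSeq start, with the last base before it as -1, TATAAA began at -33 in FOS, -30 in FOSB and -31 in JUNB. It was found on either strand in 11.6% of 34943 windows of the same length, which run from 250 bases before to 50 after a start, and in 4 of the 8 windows of the family. The other match, in the second ATF3 window, began at -230. TGACG began at -64 in FOS, -60 in FOSB, -137 in JUNB and -123 in JUN, and also lay in the FOSL2 and JUND windows. It was present in 24.5% of all windows, and it overlaps the full palindrome TGACGTCA, which was found in the JUND window alone among the 8 and in 1.84% of all. TGACATCA, present in 2.61% of all windows, began at -67 in JUN and -123 in the first ATF3 window. TGAGTCA or its reverse complement was found in the FOSL2 window, after the start, and in 4.96% of all windows. The CArG box, which binds serum response factor, was found in 1.30% of windows and in none of the 8. Boxes more than 250 bases before a start were not looked for, so a gene is not shown to lack one. A match is a run of letters, not a shown binding site.

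Among the FOS family genes, whose proteins need a JUN partner to bind DNA, FOS mRNA was far higher in RBMXL3 cells and FOSL1 and FOSL2 mRNAs were not. FOS (ENSG00000170345.10; chromosome 14, 75278774 to 75282230, plus strand, GRCh38 with GENCODE 29; 4 exons in FOS-201) had normalised read counts of 89.7 and 102 in WT, 121 and 112 in GFP, against 936 and 793 in RBMXL3. Both RBMXL3 libraries stood far above the 4 controls, which differed little. The RBMXL3 mean of 865 ± 101 (SD, n = 2) was 7.41 times that of GFP, at 117 ± 6.19, and 9.003 times that of WT, at 96.0 ± 8.91. On the scale of the fit, log2(value + 1) of the deposited value divided by 23.9, the difference was 2.66 against GFP and 2.89 against WT (SE 0.14). It ranked 3 and 2 among the log2 differences of 14292 genes. Its transcript FOS-201, which spans the 4 exons, had 2.52 and 3.19 TPM (a measure of transcript abundance per length) in WT, 1.80 and 2.68 in GFP, against 23.9 and 20.3 in RBMXL3.

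FOSB, a close relative of FOS, was the least abundant member. FOSB (ENSG00000125740.15; chromosome 19, 45467995 to 45475179, plus strand) had 7 and 9 reads in the WT libraries, 11 and 21 in those of GFP, and 37 in each RBMXL3 library. As normalised read counts these were 5.93 and 7.55, 10.2 and 22.2, and 47.6 and 39.6. The RBMXL3 libraries were the highest, and GFP replicate 2 was the highest control. The RBMXL3 mean was 2.69 times that of GFP and 6.47 times that of WT, with log2 differences of 0.77 and 1.14 (SE 0.20), which understate the change of so low a gene. Without GFP replicate 1 the difference from GFP was 0.55. FOSB passed the filter on low values only through the RBMXL3 libraries, since 0 of the 4 controls reached its minimum. In summed TPM it was at 0.102 and 0.123 in WT, 0.610 and 0.687 in GFP, against 0.817 and 0.713 in RBMXL3, so on that scale GFP lay near RBMXL3.

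FOSL1 and FOSL2 encode the FOS-related antigens FRA-1 and FRA-2, which lack the strong activation domain of FOS. FOSL1 (ENSG00000175592.9; chromosome 11, 65892049 to 65900573, minus strand) was at 68.6 and 44.5 in WT, 91.5 and 76.3 in GFP, against 82.4 and 50.3 in RBMXL3 as normalised read counts. The groups overlapped, and the log2 difference from WT of 0.16 (SE 0.21) became -0.10 without RBMXL3 replicate 1 and -0.06 without WT replicate 2. FOSL2 (ENSG00000075426.12; chromosome 2, 28392448 to 28417312, plus strand) was at 288 and 277 in WT, 274 and 242 in GFP, against 251 and 229.9 in RBMXL3. RBMXL3 and GFP overlapped, and both RBMXL3 libraries were below WT, by a log2 difference of -0.21 (SE 0.13).

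**Figure D1:**
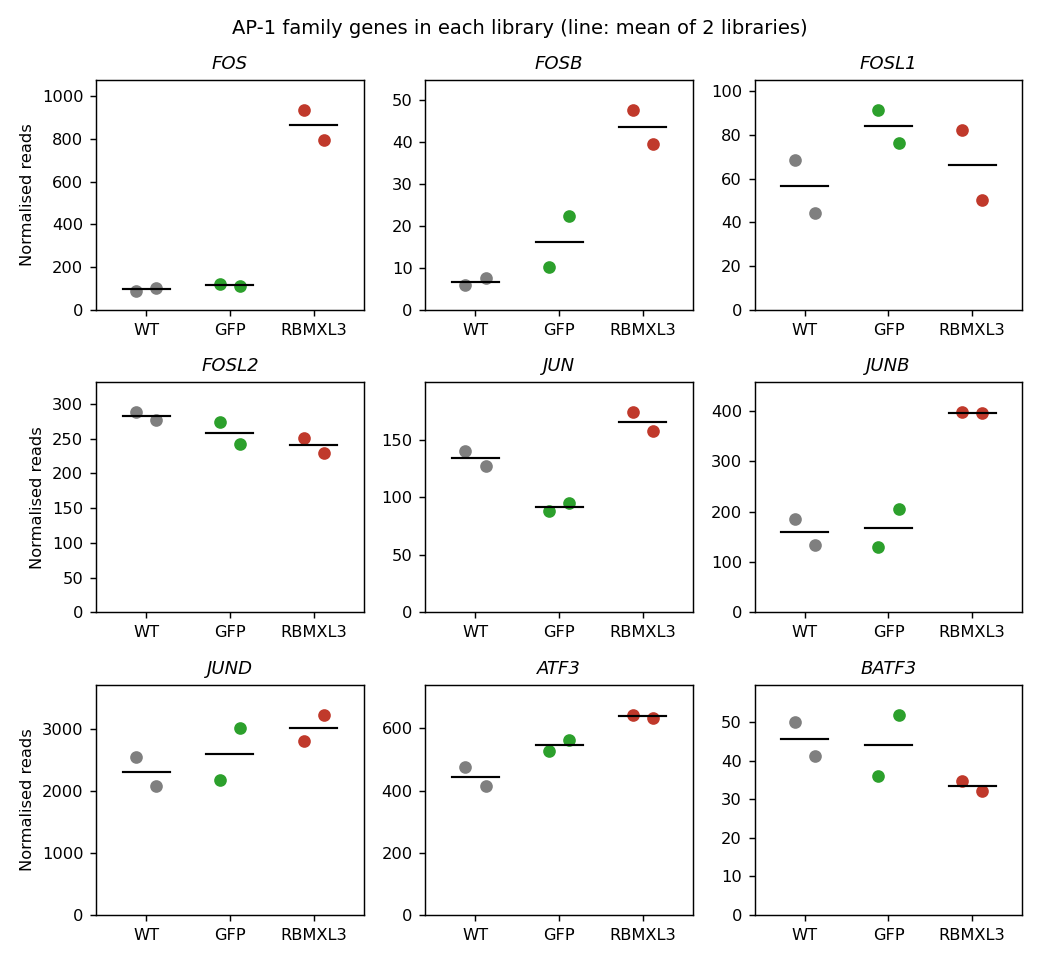
Normalised read counts (vertical axes, linear from 0) of the 9 AP-1 genes in WT, GFP and RBMXL3 libraries, with a point for each library and a line at the mean of 2. The FOS points of RBMXL3 sit at 936 and 793, against at most 121 in a control, while those of FOSL1, FOSL2 and JUND overlap controls.

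The mRNAs of the JUN genes, whose proteins bind DNA with a FOS partner or with each other, showed 3 different patterns. JUNB (ENSG00000171223.6; chromosome 19, 12791496 to 12793315, plus strand, 1 exon) was at 185 and 133 normalised reads in WT, 129 and 206 in GFP, against 398 and 396 in RBMXL3. Both RBMXL3 libraries stood above all controls, and the replicates of each control group differed more than their means. The RBMXL3 mean was 2.37 times that of GFP and 2.49 times that of WT, with log2 differences of 1.17 and 1.21 (SE 0.19). In TPM, JUNB was at 7.64 and 5.91 in WT, 4.96 and 7.63 in GFP, and 16.5 in both RBMXL3 libraries. HOOK2, on the opposite strand, covers 14.2% of the JUNB exon bases and had 295 and 304 normalised reads in WT, 399 and 367 in GFP, against 483 and 473 in RBMXL3. Whether counting used strand is not given in the sources used here, and the part of HOOK2 reads in JUNB was not tested.

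JUN, the founding member and a strong activator, was lowest in GFP. JUN (ENSG00000177606.9; chromosome 1, 58780788 to 58784327, minus strand, 1 exon) was at 141 and 128 normalised reads in WT, 87.8 and 95.4 in GFP, against 174 and 157 in RBMXL3. The 3 groups did not overlap. RBMXL3 was 1.81 times GFP and 1.23 times WT, with log2 differences of 0.71 and 0.26 (SE 0.14), and GFP lay below WT by a log2 difference of -0.45. In TPM the WT libraries, at 2.92 and 2.82, lay between the RBMXL3 libraries, at 2.13 and 3.31, and GFP stayed lowest at 1.75 and 1.77. The difference from WT was -0.07 in summed TPM, so its direction rests on the gene table.

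JUND, which encodes the JUN protein that most resting cells express, had the most abundant mRNA of the members. JUND (ENSG00000130522.6; chromosome 19, 18279760 to 18281622, minus strand) was at 2544 and 2083 normalised reads in WT, 2172 and 3017 in GFP, against 2809 and 3232 in RBMXL3. GFP replicate 2 exceeded RBMXL3 replicate 1, so the groups overlapped. The log2 difference from GFP was 0.23 (SE 0.15), 0.47 without GFP replicate 2 and -0.0020 without GFP replicate 1. From WT it was 0.38 (SE 0.15). In summed TPM the groups did not overlap, with 184 and 214 TPM in RBMXL3 above a highest control of 179.5. Its single-exon transcript JUND-201 had 118 and 101 TPM in WT, 81.5 and 115 in GFP, against 150.4 and 159 in RBMXL3. The shorter model JUND-202 took 53.9% and 36.2% of JUND TPM in GFP, and between 13.4% and 25.8% in the other 4 libraries.

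ATF3 is a stress-induced partner of JUN proteins and also a repressor as a pair with itself. ATF3 (ENSG00000162772.18; chromosome 1, 212565334 to 212620777, plus strand) was at 476 and 414 normalised reads in WT, 526 and 564 in GFP, against 644 and 633 in RBMXL3. The groups did not overlap, and GFP lay between WT and RBMXL3. RBMXL3 was 1.17 times GFP and 1.44 times WT, with log2 differences of 0.22 and 0.50 (SE 0.12). In summed TPM the same ratios were 1.76 and 1.75. Among its transcript models, ATF3-210 was at 6.82 and 4.71 TPM in RBMXL3 and 4.53 in WT replicate 1, and was listed at 0 in the other 3 libraries. ATF3-202, the most abundant model, was at 12.2 and 11.7 TPM in WT, 13.5 and 14.7 in GFP, against 18.7 and 19.9 in RBMXL3.

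BATF3, a small partner of JUN proteins without an activation domain, was the only member below every control. BATF3 (ENSG00000123685.9; chromosome 1, 212686418 to 212699985, minus strand) was at 49.95 and 41.1 normalised reads in WT, 36.0 and 51.9 in GFP, against 34.8 and 32.1 in RBMXL3. The gap between RBMXL3 replicate 1 and GFP replicate 1 was less than 1 read is worth in the former (1.29 normalised reads). Its log2 differences were -0.23 and -0.27 (SE 0.18). In summed TPM BATF3 overlapped the controls and the difference from GFP was 0.04.

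Seen as a family, 5 of the 9 genes (FOS, FOSB, JUN, JUNB and ATF3) had both RBMXL3 libraries above all 4 controls, where 22.5% of all tested genes did. BATF3 was below them all, as were 23.6% of tested genes, and 3 genes overlapped. In the limma fit across 14292 genes, at an adjusted p under 0.05, 4 of the 9 genes were called higher than in GFP (FOS, FOSB, JUN and JUNB), beside 10.5% of all tested genes. The JUN call was lost without the filter, in summed TPM and without RBMXL3 replicate 1. Against WT 4 were called higher (ATF3, FOS, FOSB and JUNB), beside 14.6%. The ATF3 call was lost without WT replicate 2, RBMXL3 replicate 1 or RBMXL3 replicate 2, and JUND was called against WT with DESeq2, in quantile-normalised values, in summed TPM, in a fit of those 2 groups alone and without GFP replicate 1 or GFP replicate 2. FOS, FOSB and JUNB were called higher against both controls, beside 6.88% of tested genes. FOSB was not tested in summed TPM or with a filter on a mean of at least 5, since it was too low for either. The FOSB call against both was lost without the filter, with DESeq2 and without GFP replicate 1, RBMXL3 replicate 1 or RBMXL3 replicate 2, while JUND was called against both without GFP replicate 2 and ATF3 in summed TPM. No member was called lower against GFP, WT or both, beside 10.4%, 15.3% and 6.86% of tested genes, and limma at an unadjusted p under 0.05, edgeR and DESeq2 each gave 0 lower against GFP and 0 against WT. Since these contrasts were known when the genes were chosen, the counts describe the family and nothing is read from them. Between GFP and WT limma called 0 of the 9, beside 1.76% called higher and 1.91% called lower of all tested genes. At an unadjusted p under 0.05 there was 1 higher and 1 lower, and edgeR and DESeq2 also called 0.

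The median log2 difference of the 9 genes was 0.23 against GFP and 0.38 against WT, beside 0.00087 and -0.01 over all tested genes, and 0.15 between GFP and WT, beside -0.0078. In summed TPM the median of all genes was itself shifted by 0.13 against GFP, so TPM differences are to be read against that value. FOS at 2.59 and JUNB at 1.29 stood above it on the same scale, and FOSL2 at 0.16 lay near it.

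**Figure D2:**
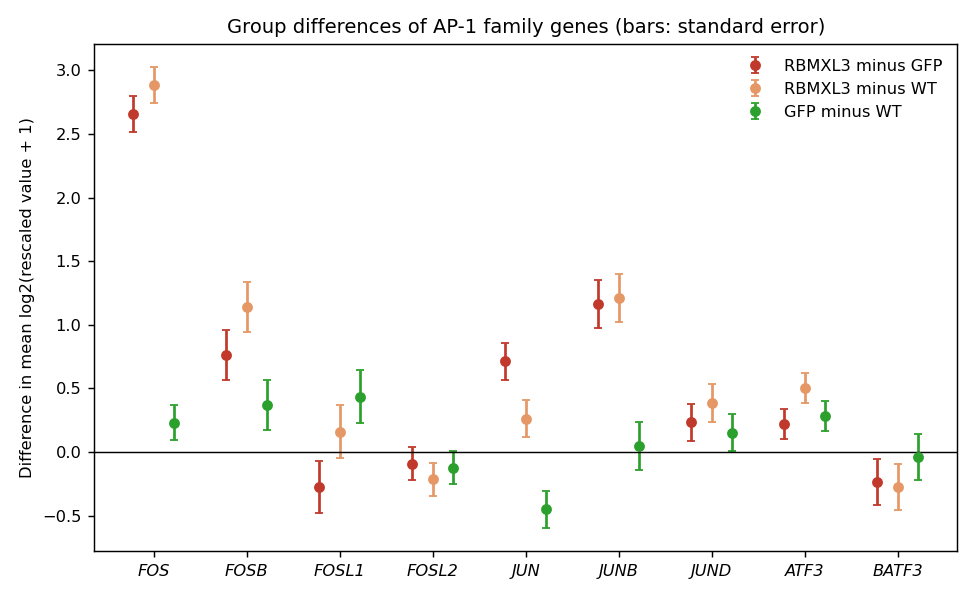
Differences in mean log2(rescaled value + 1) between groups (vertical axis) for the 9 genes, with bars of 1 standard error from the limma fit. FOS lies at 2.66 and 2.89 in RBMXL3 minus GFP and minus WT, and the GFP minus WT values lie between -0.45 (JUN) and 0.44 (FOSL1).

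Compared per length, in summed TPM, the order of the genes changed with the group. In WT it was JUND (137 ± 0.391, SD, n = 2), ATF3 (15.3 ± 3.46), JUNB (6.77 ± 1.23), BATF3 (4.23 ± 0.121), FOS (3.73 ± 0.310), JUN (2.87 ± 0.0672), FOSL2 (2.56 ± 0.0581), FOSL1 (2.15 ± 0.648) and FOSB. FOSL2 and FOSL1 did not differ beyond their spread. In RBMXL3 cells FOS took the second place at 32.6 ± 3.18, ahead of ATF3 at 26.8 ± 0.886 and JUNB at 16.5, while BATF3, FOSL1, JUN and FOSL2 overlapped between 2.02 and 3.90 TPM. In GFP, FOS at 4.56 ± 0.280 did not differ from JUNB, at 6.29 ± 1.88, beyond its spread and lay above BATF3 at 3.23 ± 0.420.

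The 4 FOS genes together had 8.82 and 8.28 TPM in WT, 10.9 and 9.89 in GFP, against 42.3 and 35.3 in RBMXL3. The JUN genes had 147 and 145, 184 and 189, and 203 and 234 TPM in the same order. FOS alone made up 12.6% and 10.2% of the TPM of the 9 genes in RBMXL3, and between 1.97% and 2.32% in the controls. JUND made up 66.7% and 71.8% in RBMXL3 and between 76.7% and 83.4% in the controls. The depth behind TPM is unknown, so these shares carry no counting interval.

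**Figure D3:**
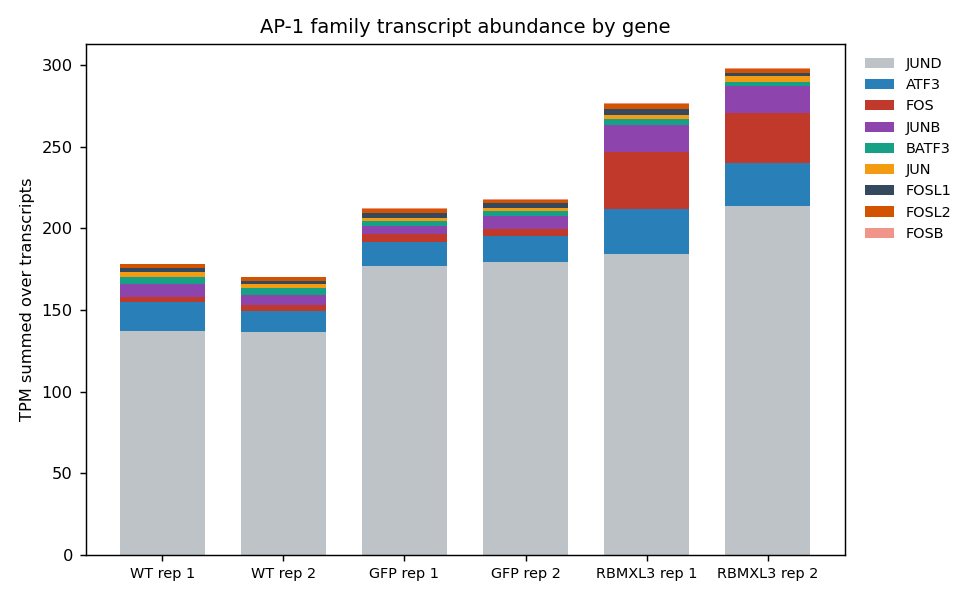
Summed TPM (vertical axis, linear from 0) of the 9 genes, stacked by gene in each of the 6 libraries. The FOS segment measures 34.9 and 30.4 TPM in the RBMXL3 libraries and between 3.51 and 4.75 in the controls, and JUND is the tallest segment in all 6.

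The genes on either side of the members were read to see how local the differences were. FOS lies between TMED10 and JDP2, and JDP2, which encodes another JUN partner, lies 145485 bases from FOS. JDP2 was at 690.0 and 554 normalised reads in WT, 693 and 747 in GFP, against 948 and 929 in RBMXL3. It was called against both controls, by 0.37 and 0.58 on the log2 scale (limma adjusted p 0.0448 and 0.00386). The call against both was lost without the filter, in quantile-normalised values, in summed TPM and without GFP replicate 1, RBMXL3 replicate 1 or RBMXL3 replicate 2. TMED10 was at 8301 and 8069, 7208 and 7233, and 7882 and 7788 normalised reads, and was not called against both. RTN2, which lies 10109 bases from FOSB, was at 353 and 352 in WT, 465 and 476 in GFP, against 667 and 673 in RBMXL3 (log2 differences 0.49 and 0.88, limma adjusted p 0.00952 and 0.000213). Of the 17 nearest protein-coding genes that do not overlap a member, 14 were tested. JDP2 and RTN2 were the ones called against both, each higher, beside 6.88% of all tested genes called higher. Left out of this count were the overlapping genes HOOK2, described above, and ERCC1, which overlaps FOSB on the opposite strand and shares 0% of its exon bases. ERCC1 was at 831 and 714 in WT, 713 and 678 in GFP, against 877 and 919 in RBMXL3.

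By likeness over the 6 libraries, the 5 non-member genes closest to FOS were RBMXL3 (Pearson r 0.994), ZNRF2 (0.990), ARHGEF25 (0.989), CA11 (0.988) and NUDT21 (0.988). The measure was r of log2(value + 1) among 891 genes whose libraries spanned at least 1 on that scale. Of these, 86 had an r of at least 0.95 with FOS, since any gene that is flat in the controls and high in both RBMXL3 libraries follows it. NUDT21, for example, was at 626 and 842 normalised reads in WT, 765 and 741 in GFP, against 1978 and 1894 in RBMXL3. Closest to JUN were ST8SIA6 (0.990), TTC34 (0.975), ISLR2 (0.973), LYRM7 (0.963) and MTX3 (0.959). ISLR2 showed the JUN order, at 78.7 and 82.2 in WT, 44.4 and 42.4 in GFP, against 109 and 110.1 in RBMXL3. Closest to ATF3 were LURAP1 (0.996), SP6 (0.986), TMEM92 (0.981), TNNI3 (0.980) and GDF15 (0.979). GDF15 was at 113 and 87.3 in WT, 208 and 273 in GFP, against 337 and 372 in RBMXL3. Within the family, FOS had an r of 0.929 with FOSB, 0.924 with JUNB, 0.819 with ATF3, 0.719 with JUN and 0.609 with JUND. It had an r of -0.037 with FOSL1, -0.684 with FOSL2 and -0.744 with BATF3. These are descriptions over 6 libraries of 3 groups, and no p is given.

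Upstream of AP-1 stand growth factors and their receptors. Of 24 listed, 16 were tested. RBMXL3 cells had 3 higher and 3 lower than GFP, beside 10.5% and 10.4% of all tested genes, and 3 higher and 4 lower than WT, beside 14.6% and 15.3%. Against both controls 2 were called higher and 2 lower, beside 6.88% and 6.86%. FGFR3, a fibroblast growth factor receptor, rose to 5693 and 5641 normalised reads from 4183 and 3721 in GFP and 2990 and 3313 in WT (log2 differences 0.52 and 0.84, limma adjusted p 0.00416 and 0.000151). FGFR4, a second such receptor, rose by 0.32 and 0.59 (adjusted p 0.0319 and 0.000888). KIT, the receptor for stem cell factor and a seminoma marker, fell to 1411 and 1429 from 1802 and 1926 in GFP and 2578 and 2403 in WT (-0.39 and -0.80, limma adjusted p 0.0150 and 0.000159). PDGFB, a platelet-derived growth factor chain, fell by 0.53 and 0.66 on the log2 scale (limma adjusted p 0.0103 and 0.00206). KIT was also called lower in GFP than in WT, by a log2 difference of -0.41 (limma adjusted p 0.0407). Each of the 4 calls against both controls was lost without RBMXL3 replicate 1 and without RBMXL3 replicate 2, and those of FGFR4 and KIT also without the filter. FGFR3, KIT and PDGFB were not called against both in summed TPM.

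The kinases that carry the signal were listed with serum response factor and its partners. Of 28 listed, 27 were tested, and MAP2K7 was the single gene called against both controls, beside 6.88% of all tested genes called higher and 6.86% lower. MAP2K7, which activates the JUN kinases, rose to 1656 and 1618 normalised reads from 1135 and 1066 in GFP and 1173 and 1095 in WT (log2 differences 0.56 and 0.52, limma adjusted p 0.00266 and 0.00239). Higher than GFP were ELK3, ELK4 and MAP2K7, beside 10.5% of all tested genes. Lower than WT were MAP2K4, MAPK9, MRTFB and RPS6KA5, and higher MAP2K1 and MAP2K7, beside 15.3% and 14.6%. Nearest the threshold were ELK3 against GFP and MAP2K1 against WT (limma adjusted p 0.0344 and 0.0424). SRF, which encodes serum response factor, was at 1730.4 and 1717 in RBMXL3, 2018 and 1865 in GFP, and 1975 and 1720 in WT. The list's median log2 difference was 0.02 against GFP and -0.03 against WT.

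Feedback inhibitors of MAP kinases, many of them induced by the same signals, were counted next. Of 18 listed, 17 were tested, and 6 were lower and 2 higher than WT, beside 15.3% and 14.6% of tested genes. The count of 6 lower became 3 with DESeq2 and in quantile-normalised values, 2 without the filter and without WT replicate 2, and 1 in summed TPM and without WT replicate 1, RBMXL3 replicate 1 or RBMXL3 replicate 2. DUSP4, a nuclear MAP kinase phosphatase, fell to 76.0 and 67.4 normalised reads from 121 and 144 in GFP and 197 and 177 in WT (log2 differences -0.71 and -1.14, limma adjusted p 0.00696 and 0.000284). It was the single gene of the list called against both controls, beside 6.88% of all tested genes called higher and 6.86% lower. SPRY1 was the other gene lower than GFP, beside 10.4% of all tested genes. The DUSP4 call was lost without RBMXL3 replicate 2, without the filter and in summed TPM. DUSP1, another phosphatase and an immediate early gene, was at 130 and 126 in WT, 165 and 146 in GFP, against 219 and 211 in RBMXL3. It was called against WT and not against GFP. The list's median was -0.18 against GFP and -0.27 against WT.

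Among proteins that act on the decay of AU-rich mRNAs or on the turnover of AP-1 proteins, 15 of 16 listed genes were tested. Against GFP 2 were called higher and 1 lower, beside 10.5% and 10.4% of all tested genes. Against WT 1 was higher and 4 lower (COP1, HNRNPD, CNOT7 and FBXW7), beside 14.6% and 15.3%, and DESeq2 gave 3 lower. Against both controls 1 was called higher and 1 lower, beside 6.88% and 6.86% of all tested genes. COP1, a ubiquitin ligase that targets JUN, fell to 2475 and 2365 normalised reads from 3431 and 3567 in GFP and 3815 and 3607 in WT (log2 differences -0.53 and -0.61, limma adjusted p 0.00275 and 0.000669). KHSRP, which promotes decay of AU-rich mRNAs, rose to 17960.4 and 18955 from 14785 and 13891 in GFP and 15061 and 13866 in WT (0.36 and 0.35, adjusted p 0.0272 and 0.0235). ZFP36, another such factor and itself an immediate early gene, was at 134 and 121 in WT, 105 and 94.3 in GFP, against 173 and 149 in RBMXL3, and was called against GFP. The KHSRP call was lost without WT replicate 1, WT replicate 2, RBMXL3 replicate 1 or RBMXL3 replicate 2, and that of COP1 without RBMXL3 replicate 2. The KHSRP call was also lost without the filter, and neither held in summed TPM.

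Other basic leucine zipper proteins can pair with AP-1 members or share their sites. Of 30 listed, 26 were tested, and 3 were called against both controls, each higher, beside 6.88% of all tested genes. CEBPB, a C/EBP factor, rose to 1137 and 1134 normalised reads from 605 and 832 in GFP and 429 and 487 in WT (log2 differences 0.66 and 1.27, limma adjusted p 0.00673 and 9.44e-05). CEBPG, its partner without an activation domain, rose by 0.33 and 0.46 (adjusted p 0.0355 and 0.0056), and JDP2, described above, was the other. Against WT 7 were higher and 3 lower (NFE2L2, ATF5 and ATF7), beside 14.6% and 15.3%. These counts became 2 and 1 without RBMXL3 replicate 1 or RBMXL3 replicate 2, 3 and 0 without WT replicate 1, and 3 and 2 without WT replicate 2. The CEBPB call was lost without RBMXL3 replicate 2, that of CEBPG without any of WT replicate 1, WT replicate 2, GFP replicate 1, RBMXL3 replicate 1 and RBMXL3 replicate 2, and both without the filter. CEBPB was also called between GFP and WT, by 0.61 (adjusted p 0.0383).

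Genes long known as AP-1 targets moved in both directions. Of 30 listed, 23 were tested; 3 were higher and 4 lower than GFP, beside 10.5% and 10.4% of all tested genes, and the same 7 were called against both controls. Against WT 8 were higher and 6 lower, beside 14.6% and 15.3%, and these counts became 4 and 2 without RBMXL3 replicate 2, 6 and 3 without RBMXL3 replicate 1, 5 and 3 without WT replicate 1, and 4 and 4 without WT replicate 2. VEGFA, a blood vessel growth factor, rose to 649 and 649 normalised reads from 359 and 326 in GFP and 267 and 255 in WT (log2 differences 0.88 and 1.24, limma adjusted p 0.000692 and 3.52e-05). PLAU, which encodes urokinase, rose to 785 and 791 from 563 and 514 in GFP and 358 and 304 in WT (0.53 and 1.199), and was also called higher in GFP than in WT, by 0.67 (limma adjusted p 0.0163). CCND1, cyclin D1, rose to 1777 and 1822 from 1373 and 1405 in GFP and 1231 and 1120 in WT (0.37 and 0.61).

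Other targets fell. SPP1, osteopontin, fell to 306 and 284 normalised reads from 780 and 675 in GFP and 578 and 448 in WT (log2 differences -1.23 and -0.74, limma adjusted p 0.000281 and 0.00213). FST, the activin antagonist follistatin, fell to 83.7 and 74.9 from 151 and 173 in GFP and 218 and 226 in WT (-0.85 and -1.25). MT2A, a metallothionein, fell by 0.92 and 0.53, and EZR, ezrin, was the remaining fall. The collagenase and stromelysin genes MMP1, MMP3, MMP10 and MMP13, and CXCL8, CD44 and IVL, were under the filter. MMP3 and MMP10 had 0 reads in all 6 libraries, which allows up to 3 reads in each. The list's median log2 difference was -0.07 against GFP and 0.23 against WT, and 0.28 between the controls GFP and WT. The calls of PLAU, CCND1, MT2A and EZR were lost without RBMXL3 replicate 1 and without RBMXL3 replicate 2, those of MT2A and EZR also without WT replicate 1. VEGFA, CCND1, MT2A and EZR were not called against both in summed TPM, PLAU, CCND1 and EZR not without the filter, and EZR not in quantile-normalised values.

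**Figure D4:**
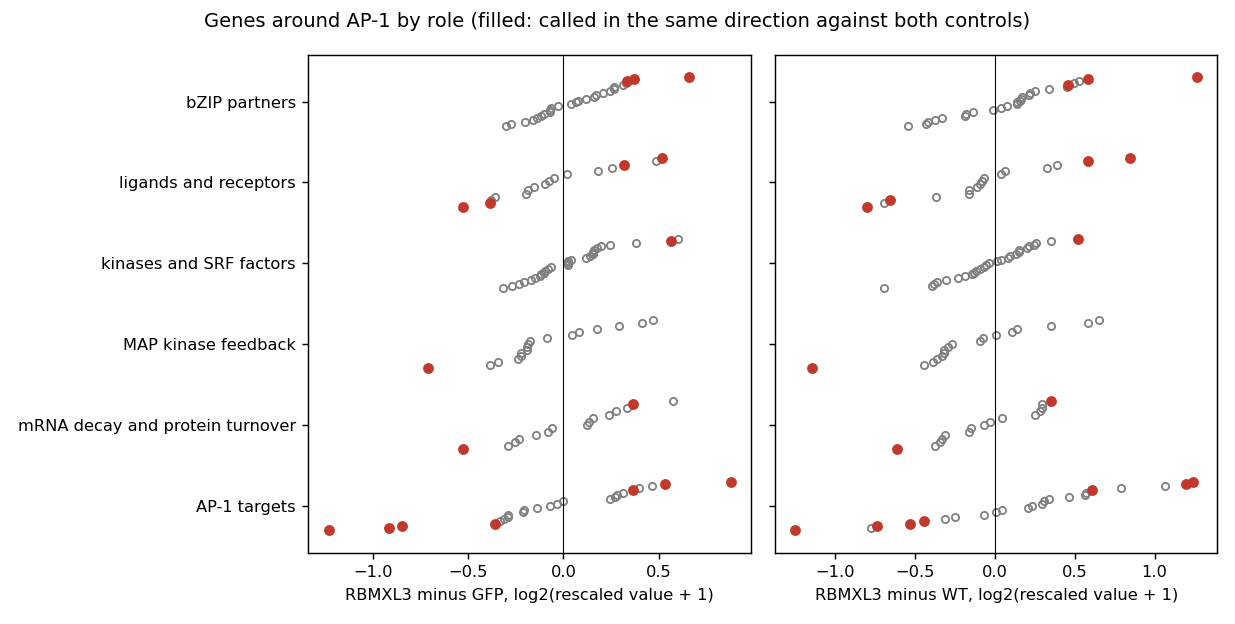
Differences in log2(rescaled value + 1) of RBMXL3 minus GFP (left) and minus WT (right) for the tested genes of 6 role lists, 1 point a gene, filled where limma called the gene in the same direction against both controls. Target genes are filled on both sides of 0, from SPP1 at -1.23 to VEGFA at 0.88 against GFP, and MAP2K7 is the single filled kinase.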

How the data were processed

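Polyadenylated RNA of 6 TCam-2 libraries was sequenced by the authors with a stranded kit, per the labels' protocols. The submitters' processing notes name Trim Galore 0.6.10, STAR 2.7.11a, DESeq2 and Salmon 1.10.2, and the build GRCh38. The read counter, the annotation and the use of strand are not given in the sources used here. The deposited gene table, although named for CPM, holds a normalised signal: every nonzero value (100% of 145320, within 1e-06 of a read) was a whole multiple of 1 step per library, so the authors divided reads by 1 size factor per library. The deposited transcript table holds TPM, and TPM was summed per gene over transcripts in GENCODE 29 (80.0% of transcripts, 94.7% to 95.1% of TPM). The number of table columns of no sample was 0.

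Gene values were divided by 23.9, kept where at least 1 in at least 2 libraries, and log2(value + 1) was fitted with limma 3.58.1 (R 4.3.3), 1 coefficient per group, with an intensity trend, two-sided, with Benjamini-Hochberg adjustment over 14292 genes. The planned test had assumed this same scale. Fold changes on it understate changes of low genes. edgeR 4.0.16 and DESeq2 1.42.0 on the recovered reads were alternatives. The members and the lists of pathway genes were chosen with earlier results of these data known. From each list, up to 3 rises and 3 falls called against both controls with a rescaled group mean of at least 5 were named, ranked by the smaller log2 change, and from the whole table the 5 genes most like FOS, JUN and ATF3. EZR, SPRY1, DUSP1, SRF, ZFP36 and the genes called against 1 control were named after their values were seen. Replicates differed beyond sampling noise in every group (chi-square per degree of freedom of at least 2.64). A floor of 3 reads covers counting error alone, because PCR copies of a molecule were not marked. The labels name no preparation batch, so such a batch and the group cannot be told apart.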

Additional observations from a re-analysis of the deposited data

How the results depend on the processing

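As reported, limma called 2986 genes between RBMXL3 and GFP (1503 higher, 1483 lower), 4271 between RBMXL3 and WT (2085 and 2186), 524 between GFP and WT and 1964 against both controls. Without the filter these were 950, 2327, 0 and 673, in summed TPM 988, 1638, 0 and 655, and with a minimum log2 change of 1 they were 153, 291, 19 and 91. In summed TPM the directions were uneven, with 779 higher and 209 lower against GFP and 994 and 644 against WT. Beside the 0 calls of limma between GFP and WT, 3951 and 2214 genes had an unadjusted p under 0.05. On the filtered genes, where limma called 524 between GFP and WT, edgeR and DESeq2 called 474 and 695. The GFP and WT count was also 327 under quantile normalization and 148 when fitted on those 2 groups only.

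With the replicate number as a block, the counts were 2386, 3697, 191 and 1566. The labels do not say that a number marks a shared culture. The deviations of same-numbered libraries from their group means correlated at -0.16, 0.03 and -0.09, so no strong shared effect was seen. With 2 libraries per group, this cannot tell whether same-numbered libraries shared a culture. Under the block JDP2, CEBPG, FGFR4, KHSRP and EZR were not called against both controls. Leaving out each library in turn gave 658 to 4313, 1428 to 6163, 0 to 2780 and 435 to 2715; a group left with 1 library was assumed to vary like the others. The 0 came without WT replicate 1 (limma, 1877 at an unadjusted p under 0.05), the lowest 3 of the other counts came without RBMXL3 replicate 2, and all 4 of the highest without GFP replicate 2.

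Over the alternatives with a value, the log2 difference of FOS stayed between 2.54 and 2.90 against GFP and between 2.77 and 3.18 against WT, and that of JUNB between 0.87 and 1.46 and between 1.007 and 1.42. Of the 393 values of the 9 genes under an alternative, 350 moved by less than the spread between replicates, 43 moved by more, and 0 called differences changed sign. Some alternatives cannot move a log2 difference: a changed filter, the replicate block, a fit of 2 groups and leaving out a library of the third group. The count of 350 includes these, so it does not measure stability. With a minimum log2 change of 1, FOS and JUNB were called against both controls, and FOSB and the genes named from the lists were not. FOSB, at 37 reads or fewer, is limited by depth.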
